A study of Mus musculus with 4 samples.

Results

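The transcripts described here encode the nuclear part of respiratory complexes I to IV, and they were read in heart ventricles of mouse embryos lacking the histone deacetylase HDAC2 (KO) and of wild-type littermates (WT). Members were all probe sets of an Affymetrix MOE430v2 array that name a single gene whose platform symbol starts with Ndufa, Ndufb, Ndufc, Ndufs, Ndufv, Uqcr, Cox4, Cox5, Cox6, Cox7 or Cox8, together with Sdha, Sdhb, Sdhc, Sdhd, Cyc1 and Cycs. The rule found 153 probe sets naming 75 genes, of 45037 probe sets other than controls. KO and WT each had 2 arrays, at embryonic day 17.5, in a C57BL/6 and SV129 cross, with RNA pooled from 3 animals for each KO array and from 2 for each WT array. The HDAC2 allele and any Cre driver are not given in the sources used here. Groups come from the sample titles, since the source field of the KO samples also reads wild type, and whether pools shared animals is not stated. Each p-value therefore reflects the variation among these pools, which may be technical.

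In the respiratory chain, complex I takes electrons from NADH and complex II from succinate, both pass them through ubiquinone to complex III, and cytochrome c carries them on to complex IV, which reduces oxygen. Complexes I, III and IV pump protons across the inner mitochondrial membrane, and ATP synthase uses the gradient. Most subunits are encoded in the nucleus, and a few subunits of complex IV have one isoform for heart and skeletal muscle and another for most other tissues, with the muscle form replacing the ubiquitous one as the heart matures.

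Regulatory sequence is shown first, for the gene with the clearest difference (Ndufa12), for a pair of muscle isoforms (Cox7a1 and Cox8b) and for a pair of ubiquitous isoforms (Cox8a and Cox6a1). Each window runs from 250 bases before to 50 after the annotated start, 5′ to 3′, from RefSeq on build GRCm38.p6. The windows are chr10:94198785-94199084, plus strand for Ndufa12, chr7:30183921-30184220, plus strand for Cox7a1, chr7:140900397-140900696, minus strand for Cox8b, chr19:7217567-7217866, minus strand for Cox8a and chr5:115348909-115349208, minus strand for Cox6a1. Capitals mark matches to the motifs named after the sequences.
Ndufa12: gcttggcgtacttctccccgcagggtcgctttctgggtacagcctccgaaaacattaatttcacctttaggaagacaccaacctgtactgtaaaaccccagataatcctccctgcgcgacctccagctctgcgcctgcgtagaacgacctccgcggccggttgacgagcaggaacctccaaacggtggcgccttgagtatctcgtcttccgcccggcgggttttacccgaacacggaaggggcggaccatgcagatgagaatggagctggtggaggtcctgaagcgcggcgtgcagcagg
Cox7a1: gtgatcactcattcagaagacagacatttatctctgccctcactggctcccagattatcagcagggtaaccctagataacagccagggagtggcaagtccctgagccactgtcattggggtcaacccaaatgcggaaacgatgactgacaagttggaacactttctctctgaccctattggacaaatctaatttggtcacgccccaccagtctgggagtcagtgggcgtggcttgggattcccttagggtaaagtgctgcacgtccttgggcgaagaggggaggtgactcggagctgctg
Cox8b: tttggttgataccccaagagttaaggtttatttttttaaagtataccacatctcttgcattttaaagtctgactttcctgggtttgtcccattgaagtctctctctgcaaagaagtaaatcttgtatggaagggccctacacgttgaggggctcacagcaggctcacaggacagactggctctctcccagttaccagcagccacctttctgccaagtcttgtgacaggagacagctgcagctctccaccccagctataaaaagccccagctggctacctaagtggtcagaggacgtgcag
Cox8a: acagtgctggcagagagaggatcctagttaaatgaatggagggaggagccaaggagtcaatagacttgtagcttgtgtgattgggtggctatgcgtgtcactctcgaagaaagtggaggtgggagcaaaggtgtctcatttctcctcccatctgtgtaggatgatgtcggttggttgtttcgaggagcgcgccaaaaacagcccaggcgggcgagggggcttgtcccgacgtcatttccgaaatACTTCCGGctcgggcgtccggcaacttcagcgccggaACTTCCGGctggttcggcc
Cox6a1: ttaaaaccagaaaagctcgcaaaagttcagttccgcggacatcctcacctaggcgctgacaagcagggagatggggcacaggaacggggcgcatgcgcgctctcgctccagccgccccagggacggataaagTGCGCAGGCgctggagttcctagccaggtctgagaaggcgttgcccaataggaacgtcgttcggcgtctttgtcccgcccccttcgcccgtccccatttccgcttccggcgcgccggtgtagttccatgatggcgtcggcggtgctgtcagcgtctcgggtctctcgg

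RefSeq promoter windows matched 60 of the 75 genes, with 62 windows. The motifs searched, on both strands, were TGCGCANGC for NRF1, CCGGAAGT for the ETS class that includes GABP, TCAAGGTCA for the ERR receptors, AAGATGGCG for YY1 and CTAAAAATA for MEF2. NRF1, GABP and the ERR receptors are known activators of respiratory genes. TGCGCANGC was found in windows of 11 of the 60 genes (18.3%), against 4.70% of all 27025 genes with a window. These 11 were Cox6a1, Ndufa5, Ndufa6, Ndufa8, Ndufaf4, Ndufb10, Ndufb4, Ndufs5, Sdha, Sdhd and Uqcrc1. The ETS letters stood in 4 genes (6.67%, against 4.31% of all genes), at 2 places in Cox8a and also in Ndufs3, Uqcr11 and Uqcrh. The YY1 letters were in 5 genes (8.33%, against 1.64%), the ERR letters in Sdhd alone (1.67%, against 0.466%), and the MEF2 letters in 0 of 60 (against 0.588%). The windows of Ndufa12, Cox7a1 and Cox8b held none of these letter strings. These are matches of letters, not binding sites.

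Facts of the series that bear on these transcripts were as follows. The 3 Hdac2 probe sets were called Absent on both KO arrays and Present on both WT arrays, and the brightest read 31.4 and 21.0 in KO against 1189 and 1421 in WT (at least 50.6-fold lower, adjusted p = 2.32e-09). Arrays were alike in detection, with 43.2% and 43.8% of probe sets called Present in KO and 43.2% and 42.4% in WT. The 3′ over 5′ signal ratio of the actin control, which grows as RNA shortens, was 2.75 and 2.42 in KO and 1.85 and 2.32 in WT. That of the Gapdh control was 1.18 and 1.01 in KO and 0.844 and 0.949 in WT. For both controls each KO array lay above each WT array. All 13 cardiomyocyte marker genes looked up were Present in both groups, with a summed signal of 130844 and 135847 in KO against 134807 and 133402 in WT, and none passed the test. Very bright genes such as Myh7 lead that sum (14855 and 15978 in KO, 15918 and 15757 in WT), so it says little about dimmer markers. At unadjusted p under 0.05 in limma, 1 of the 13 was lower and 0 higher, against 7.14% and 8.42% of all genes tested. It was Nkx2-5 (832 and 740 in KO, 1059 and 885 in WT, -0.30 ± 0.13, adjusted p = 0.280). Skeletal muscle markers did move: 10 of 12 tested genes fell, with a summed signal of 1263 and 1271 in KO against 13296 and 12378 in WT, and Tnnt3, Tnnc2, Mylpf, Actn3, Neb and Chrna1 were not called Present on either KO array. Of the 17 markers listed, 5 (Myh2, Myh4, Chrng, Myod1 and Myog) did not pass the detection filter. Xist was higher in KO (548 and 794, against 80.5 and 90.1 in WT at 1436936_s_at), so the pools also differed in sex-linked transcripts.

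The respiratory genes were nearly all strongly detected, and 1 of the 71 tested differed between genotypes past the test's threshold. Of the 75 genes, 71 had at least 1 probe set with a Present call on both KO arrays or on both WT arrays, the filter for testing, and 136 of the 153 probe sets passed it. At its brightest tested probe set, each of the 71 genes was Present on all 4 arrays, and 60 of them had a signal above 1000 throughout. The 4 without a tested probe set were Cox7b2, a testis form (4.4 and 14.9 in KO, 16.8 and 14.5 in WT), Ndufa4l2, a paralogue of Ndufa4 induced by hypoxia (296 and 210 in KO, 245 and 371 in WT), Ndufb1 (160 and 212 in KO, 110 and 194 in WT) and Ndufb4 (17.7 and 17.4 in KO, 35.8 and 24.5 in WT). The last pair are accessory subunits of complex I, and Ndufb4 is also read by probe sets that name several genes, which the rule leaves out.

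A single gene passed the test, Ndufa12. In limma with Benjamini-Hochberg adjustment over all 19065 probe sets tested, 2 member probe sets were called lower in KO and 0 higher, and both name Ndufa12. The background was 0.96% of all tested probe sets called lower and 0.383% called higher, so the 2 of 136 (1.47%) stand near it. Counted by gene at the brightest set, 1 of 71 was called lower and 0 higher, against 0.815% and 0.481% of all genes tested. At unadjusted p under 0.05 the member probe sets numbered 13 lower and 3 higher, against 8.23% and 7.29% of all tested probe sets. The groups did not overlap for 48 member sets lower in KO (35.3%) and 12 higher (8.82%), against 22.5% and 25.0% of all tested sets.

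Ndufa12 encodes an accessory subunit near the NADH-oxidising end of complex I, and during assembly it takes the place of its paralogue, the assembly factor Ndufaf2. Probe set 1455806_x_at read 4352 and 4506 in KO, against 7333 and 6465 in WT, and 1433513_x_at read 4028 and 3818 in KO, against 5974 and 5451 in WT. At both, each KO array lay below each WT array. The differences were -0.64 ± 0.093 on the log2 scale (1.55-fold lower in KO, adjusted p = 0.00318 in limma) and -0.54 ± 0.092 (1.46-fold lower, adjusted p = 0.00965); ± is the moderated standard error, with 2 arrays per group. Both calls were lost without the detection filter (adjusted p = 0.150 and 0.196) and without the variance trend (adjusted p = 0.242 and 0.274), and that of 1433513_x_at also when WT replicate 1 was left out (adjusted p = 0.108).

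The other Ndufa12 probe sets did not pass. At 1418814_s_at the signals were 3686 and 3268 in KO and 4012 and 3761 in WT (-0.16 ± 0.098, adjusted p = 0.444), and at the dim 1425919_at they were 23.1 and 12.6 in KO and 29.4 and 32.9 in WT (-0.87 ± 0.44, adjusted p = 0.366). All 4 sets thus had lower signals in KO, but by different amounts. Within an array, the log2 signal of 1455806_x_at minus that of 1418814_s_at was 0.24 and 0.46 in KO against 0.87 and 0.78 in WT, a shift of -0.47 (exact two-sided permutation p = 0.333, the smallest that 2 arrays against 2 allow; these sets were chosen after their values were seen). The suffix x_at marks sets with probes that can bind other sequences and s_at sets shared by several transcripts, so the size of the fall in Ndufa12 is uncertain. Ndufa12 lies on the chromosome of Hdac2 in GRCm38.p6, with 1125 annotated genes between them. Ndufaf2 read 206 and 234 in KO and 257 and 222 in WT, overlapping ranges (-0.12 ± 0.17, adjusted p = 0.768).

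**Figure D1:**
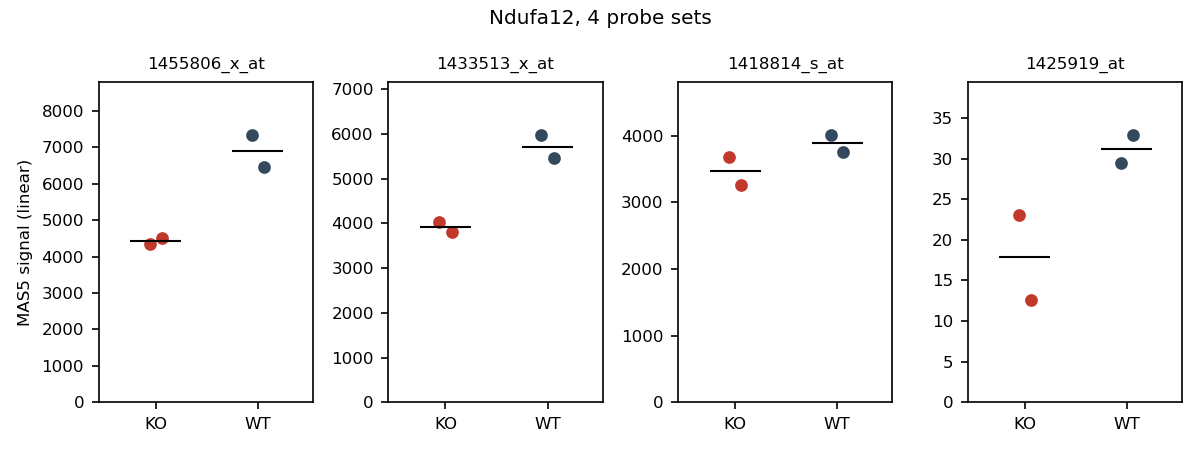
MAS5 signal on a linear scale at the 4 probe sets of Ndufa12, with 1 point for each array (2 KO at left, 2 WT at right) and a bar at the group mean. The KO arrays lie below the WT arrays in every panel, by 1.55-fold at 1455806_x_at and 1.46-fold at 1433513_x_at, the 2 sets that passed the test.

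The 6 core subunits of complex I on the array, which carry the flavin and the iron-sulphur centres, had no call. Ndufv1, which binds FMN and oxidises NADH, was at 4236 and 4033 in KO and at 4957 and 4219 in WT (-0.15 ± 0.10, adjusted p = 0.505), and its difference was -0.029 without WT replicate 1 and -0.26 without WT replicate 2. Its partner Ndufv2 was at 5943 and 6396 in KO and at 6794 and 6534 in WT (-0.11 ± 0.087, adjusted p = 0.565). Of these 6, Ndufv2 alone had groups that did not overlap, and 20.6% of all genes tested were lower in KO without overlap. Ndufs1 (0.022 ± 0.11), Ndufs3 (0.022 ± 0.092), Ndufs7 (-0.017 ± 0.095) and Ndufs8 (-0.11 ± 0.11), which hold or flank the iron-sulphur chain toward ubiquinone, had adjusted p-values of 0.671 to 0.951. Without WT replicate 1, the difference of Ndufs8 was 0.063 and that of Ndufs7 0.053, and the median of the 6, -0.062 over all arrays, was 0.012. Median centring of the arrays turned Ndufs1 (-0.0096) and Ndufs3 (-0.0086).

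Among the 26 tested accessory subunits of complex I, 20 had lower and 6 higher mean log2 signals in KO, with a median of -0.077 and a range of -0.64 to 0.07. The median was -0.050 without KO replicate 1 and -0.045 without WT replicate 1. Next to Ndufa12 stood Ndufs5, a small subunit on the intermembrane side, with signals of 1842 and 1743 in KO and 2415 and 2227 in WT. Both KO arrays were lower, but the difference did not pass (-0.37 ± 0.10, unadjusted p = 0.00265, adjusted p = 0.0989). Ndufb6, of the membrane arm, read 3128 and 3447 in KO and 4183 and 3633 in WT (-0.25 ± 0.10, adjusted p = 0.268), and the difference was -0.15 without WT replicate 1 (unadjusted p = 0.313). The highest difference belonged to Ndufa13, also known as GRIM-19, with 6711 and 7316 in KO and 6748 and 6605 in WT (0.07 ± 0.087, adjusted p = 0.741).

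The X-linked accessory subunits were read beside the sex-linked transcripts. Ndufa1 had 7424 and 7732 in KO and 7670 and 8210 in WT (-0.067 ± 0.085, adjusted p = 0.749), and Ndufb11 had 5211 and 6422 in KO and 6062 and 6364 in WT at its brightest set (-0.10 ± 0.10, adjusted p = 0.673). In both genes the groups overlapped, and the 3 tested Ndufb11 sets lay within 0.0054 of each other in log2 difference. Ndufab1, the mitochondrial acyl carrier protein, showed the widest spread among sets of 1 gene: its 4 tested sets ran from -0.80 to 0.33, with -0.06 ± 0.087 at the brightest (4586 and 4653 in KO, 4874 and 4760 in WT). Both ends of that range came from dim sets with wide errors. They were 1453565_at (17.6 and 44.7 in KO, 51.7 and 45.9 in WT, -0.80 ± 0.41) and 1435934_at (97.7 and 112 in KO, 79.6 and 86.6 in WT, 0.33 ± 0.22). The remaining accessory subunits lay between -0.20 (Ndufb10) and 0.06 (Ndufs4) and none passed. They were Ndufa2, Ndufa3, Ndufa5, Ndufa6, Ndufa7, Ndufa8, Ndufa9, Ndufa10, Ndufb2, Ndufb3, Ndufb5, Ndufb7, Ndufb8, Ndufb9, Ndufb10, Ndufc1, Ndufc2, Ndufs4 and Ndufv3.

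Assembly factors of complex I, the 8 Ndufaf genes that the symbol rule takes in, had a median of 0.081, with 5 higher and 3 lower in KO and 0 called. Without KO replicate 2 the median was 0.024. They build the complex and are not part of the mature enzyme. Ndufaf6 ran highest (250 and 348 in KO, 271 and 233 in WT, 0.23 ± 0.18, adjusted p = 0.569), and its difference was -0.012 without KO replicate 2. Ndufaf5 read 278 and 301 in KO and 258 and 246 in WT (0.20 ± 0.15, adjusted p = 0.548). Ndufaf8 stood at -0.12 ± 0.11 at its brightest set and at -0.65 ± 0.17 at the dimmer 1448003_at, where 151 and 187 in KO stood below 274 and 256 in WT (unadjusted p = 0.00214, adjusted p = 0.0903). Ndufaf1, Ndufaf3 and Ndufaf7 had differences of 0.11, 0.071 and 0.091, and Ndufaf4 of -0.056.

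Complex II, whose subunits also serve the citric acid cycle, had no call, with 2 genes higher, 2 lower and a median of -0.0012, which was 0.065 without KO replicate 1 and -0.093 without KO replicate 2. Sdha, the flavoprotein, read 6082 and 6254 in KO and 5918 and 6279 in WT (0.017 ± 0.086, adjusted p = 0.948), and its sign turned with median centring (-0.014). Sdhb, the iron-sulphur subunit, read 6274 and 7199 in KO and 7394 and 7408 in WT (-0.14 ± 0.091, adjusted p = 0.484). Of the 4 genes, Sdhb alone had groups without overlap, and 20.6% of all genes tested were lower in KO without overlap. Of the membrane anchors, Sdhc stood at -0.019 ± 0.10 and Sdhd at 0.081 ± 0.10, while the dimmer Sdhd set 1437489_x_at read 445 and 487 in KO and 591 and 607 in WT (-0.37 ± 0.13, unadjusted p = 0.0135, adjusted p = 0.199).

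In complex III, 7 of 9 genes were lower in KO and 2 higher, with a median of -0.064 and 0 called. The median was 0.0051 without KO replicate 1 and -0.19 without WT replicate 2. Cyc1, the cytochrome c1 that hands electrons to cytochrome c, read 9194 and 9368 in KO and 10776 and 10974 in WT. The gap between the groups was wider than that within either, and the difference of -0.23 ± 0.08 (1.17-fold lower) had an unadjusted p = 0.0132 and an adjusted p = 0.197. Uqcrq, a small subunit, read 3423 and 3489 in KO and 4432 and 3675 in WT (-0.22 ± 0.10, adjusted p = 0.322). Uqcrc1, a core protein, was at 6334 and 6309 in KO and at 7260 and 6837 in WT (-0.16 ± 0.085, adjusted p = 0.399). Uqcrfs1, the Rieske iron-sulphur protein, had the highest difference of the complex (4937 and 5508 in KO, 4953 and 4967 in WT, 0.072 ± 0.092, adjusted p = 0.747). Uqcr11 stood at -0.15, Uqcrc2 at -0.064, Uqcrh at -0.035, Uqcr10 at -0.0052 and Uqcrb at 0.022. Dimmer sets of the last pair were lower in KO without overlap and did not pass. For Uqcr10, 1434341_x_at read 496 and 407 in KO and 640 and 565 in WT (-0.42 ± 0.14, unadjusted p = 0.0106, adjusted p = 0.183). For Uqcrb, 1416337_at read 3617 and 3520 in KO and 4308 and 4103 in WT (-0.24 ± 0.091, unadjusted p = 0.0210, adjusted p = 0.237).

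Cycs, the somatic cytochrome c, had 4 tested sets. Its brightest, 1456071_a_at, read 7922 and 8462 in KO and 9874 and 9361 in WT, without overlap (-0.23 ± 0.084, unadjusted p = 0.0162, adjusted p = 0.215). At 1422483_a_at the difference was -0.081 and the groups came close without overlapping (5975 and 6650 in KO, 6685 and 6655 in WT), and at 1422484_at it was -0.076 with overlapping groups. The fourth, the dim 1445484_at, had no Present call in WT and so passed the filter through KO alone (39.1 and 45.1 in KO, 35.6 and 36.4 in WT). Its difference was 0.22 ± 0.31 (adjusted p = 0.777).

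Complex IV had a median of -0.10, with 14 of 17 genes lower and 3 higher in KO, and no call. The median was -0.056 without KO replicate 1 and -0.057 without WT replicate 1. Cox4i1, Cox5a and Cox5b, subunits found in all tissues, had differences of -0.12, -0.10 and -0.055 and did not pass. Cox4i1 read 9167 and 9258 in KO and 10036 and 10053 in WT (-0.12 ± 0.08, adjusted p = 0.474). Cox4i2, the form best known from lung, was dim (55.5 and 68.0 in KO, 84.8 and 61.7 in WT, adjusted p = 0.711). Ndufa4, now assigned to complex IV, stood at -0.10 ± 0.09, Cox6b1 at -0.077, Cox6c at 0.011 and Cox7a2l, which helps to join complexes III and IV, at 0.0013. The other tested Cox7a2l sets had higher means in KO and did not pass: 1432263_a_at read 2272 and 2452 in KO and 2089 and 2005 in WT, without overlap (0.21 ± 0.099, adjusted p = 0.341), and 1432264_x_at read 2420 and 3103 in KO and 2465 and 2078 in WT, with overlap (0.28 ± 0.13, unadjusted p = 0.0475, adjusted p = 0.316). Cox7c was read by dim sets that point in opposite directions (-0.30 and 0.57, adjusted p = 0.64 and 0.495).

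The muscle isoforms of complex IV are known to become more abundant as the heart matures. Cox7a1 read 1972 and 1745 in KO, against 2487 and 2284 in WT. Both KO arrays were below both WT arrays (-0.36 ± 0.11, 1.28-fold lower, unadjusted p = 0.00434, adjusted p = 0.123), and of the alternatives run the difference passed only without KO replicate 1 (-0.45, adjusted p = 0.0385). Cox8b read 4007 and 3590 in KO, against 5040 and 4281 in WT (-0.29 ± 0.10, 1.22-fold lower, unadjusted p = 0.0143, adjusted p = 0.203), and its difference was -0.17 without WT replicate 1 (unadjusted p = 0.221). Cox6a2 read 7309 and 6310 in KO, against 7557 and 7018 in WT at its brightest set, with overlapping groups (-0.10 ± 0.095, adjusted p = 0.647). Its other set, 1457633_x_at, ran the other way, with 3525 and 3479 in KO against 2839 and 2395 in WT (0.43 ± 0.10, unadjusted p = 0.00117, adjusted p = 0.0679).

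At their brightest sets the ubiquitous partners lay closer to 0. Cox7a2 read 11884 and 12715 in KO and 12878 and 12974 in WT (-0.072 ± 0.08, adjusted p = 0.703), Cox8a stood at -0.061 ± 0.085 (adjusted p = 0.774) and Cox6a1 at -0.05 ± 0.08 (adjusted p = 0.806). Cox8a read 6746 and 6447 in KO and 6977 and 6782 in WT, and Cox6a1 read 9620 and 9853 in KO and 10109 and 10053 in WT. Their other tested sets had larger falls and did not pass. The differences were -0.15 for Cox7a2 (1416971_at), -0.14 for Cox8a (1416112_at) and -0.087 for Cox6a1 (1417418_s_at). At the brightest sets of these 3 genes, as for Cox7a1 and Cox8b, both KO arrays were below both WT arrays. The same held for 20.6% of all genes tested. Isoform shifts were taken at the brightest sets alone, so their size depends on that choice, and other sets were not tried. Each ubiquitous set also had higher signals than its muscle partner, and the part of signal level in the shifts was not tested. The log2 signal of Cox7a1 minus that of Cox7a2, read only as a change between groups, was -2.59 and -2.87 in KO and -2.37 and -2.51 in WT, a shift of -0.29. For Cox8b minus Cox8a the shift was -0.23, from -0.75 and -0.84 in KO and -0.47 and -0.66 in WT, and for Cox6a2 minus Cox6a1 it was -0.05, with overlapping groups. With 1 array left out, the shift ran from -0.43 (without KO replicate 1) to -0.15 (without KO replicate 2) for Cox7a, from -0.33 (without WT replicate 2) to -0.13 (without WT replicate 1) for Cox8, and from -0.17 (without KO replicate 1) to 0.073 (without KO replicate 2) for Cox6a. An exact two-sided permutation test gave p = 0.333 for the Cox7a and Cox8 pairs, the smallest possible with 2 arrays against 2, and p = 1 for the Cox6a pair. Cox7a1, Cox8b and Cox6a2 are also made in skeletal muscle, whose marker list had a median difference of -4.23 in these arrays. Of its 12 tested genes, 4 were Present on both KO arrays and 12 on both WT arrays. The size of that median therefore depends on KO signals near background. The part of skeletal muscle in the isoform values was not tested, and in pooled tissue fewer cells of a type and less RNA per cell cannot be told apart.

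**Figure D2:**
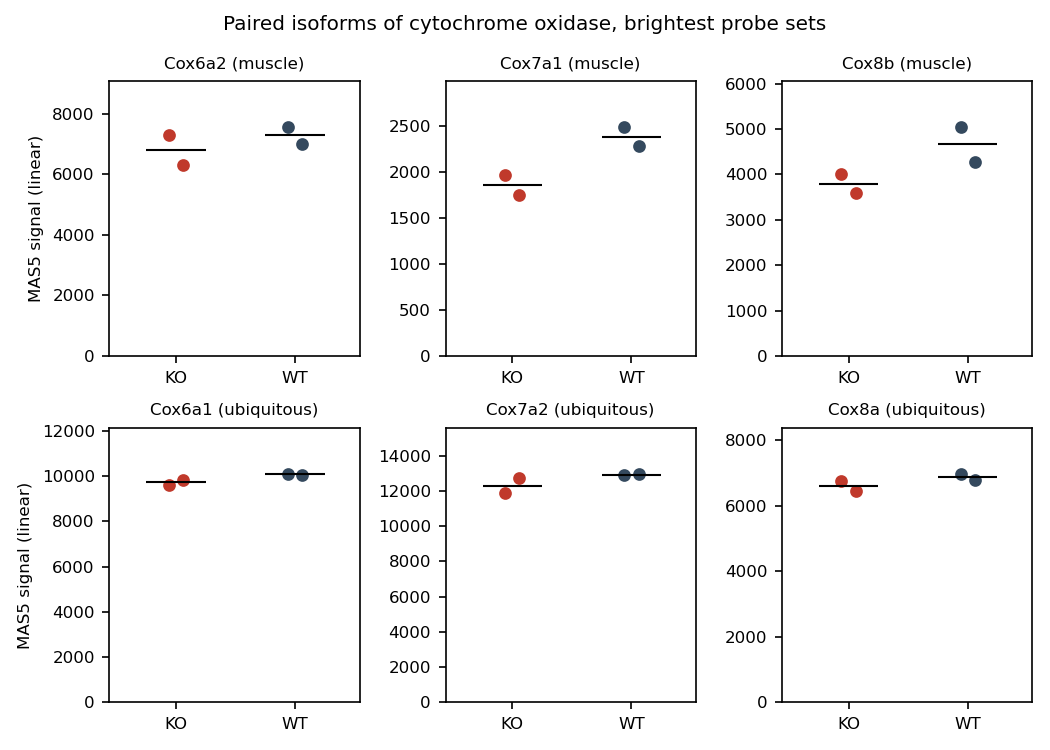
MAS5 signal on a linear scale for the muscle (top) and ubiquitous (bottom) isoforms of Cox6a, Cox7a and Cox8, with 1 point for each array (2 KO at left, 2 WT at right) and a bar at the group mean. At the brightest probe sets shown, the KO points lie below the WT points for Cox7a1, Cox8b and all 3 ubiquitous isoforms and overlap them for Cox6a2. Of all genes tested, 20.6% were lower in KO without overlap, and none of the 6 genes passed the test.

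Among forms known from testis, Cox6b2 had the highest difference of all tested genes here, at low signals (154 and 121 in KO, 109 and 66.0 in WT, 0.69 ± 0.25, unadjusted p = 0.0181, adjusted p = 0.225). Cox8c ran lower (274 and 285 in KO, 356 and 343 in WT, -0.32 ± 0.14, unadjusted p = 0.0423, adjusted p = 0.303). In both, the groups did not overlap. The difference of Cox6b2 was 0.32 without WT replicate 2 (unadjusted p = 0.244) and 1.05 without WT replicate 1 (adjusted p = 0.0774).

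**Figure D3:**
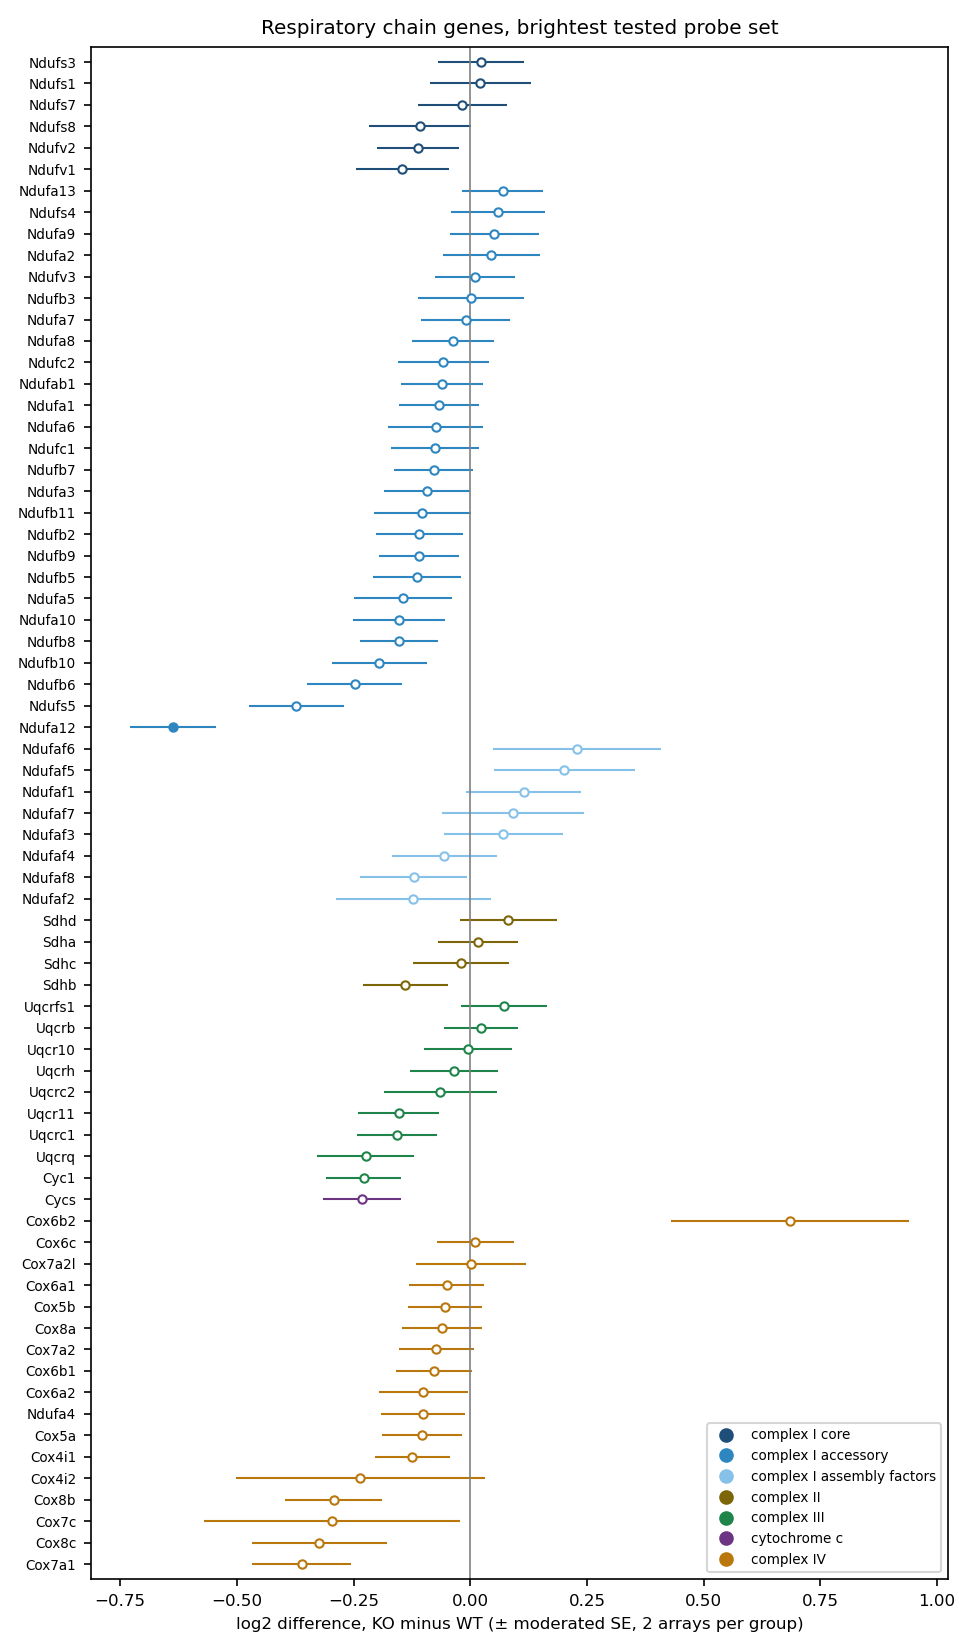
Log2 difference, KO minus WT, with its moderated standard error, for the 71 tested genes at their brightest probe set, grouped by complex and with 2 arrays per group. The filled point marks Ndufa12, the single gene past the adjusted threshold, and 51 of the 71 points lie left of 0.

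Small differences in 1 direction were common. At the brightest probe set 51 of 71 genes (71.8%) had a negative difference and the median was -0.074, against 44.3% and 0.035 for all 10184 genes tested. Groups did not overlap for 26 genes lower in KO (36.6%) and 6 higher (8.45%), beside 20.6% and 28.0% of all genes tested. At unadjusted p under 0.05 there were 8 lower genes (11.3%, against 7.14% of all) and 1 higher (1.41%, against 8.42%), and without WT replicate 1 there were 2 lower. The 8 were Ndufa12, Ndufs5, Ndufb6, Cyc1, Cycs, Cox7a1, Cox8b and Cox8c, and the higher one was Cox6b2. Members share arrays and are not independent of each other, so these shares describe and do not test. The comparison with all genes was not matched for signal, and 60 of the 71 members were above 1000 on all 4 arrays. Of the 40 genes with more than 1 tested set, 23 had all sets on the same side of 0 and 17 had sets on both sides.

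Over all tested members both KO array medians lay below both WT array medians, but the second arrays of the groups differed very little. Each gene's deviation from its 4-array mean had a median over the 71 genes of -0.069 and 0.0077 in KO and 0.063 and 0.01 in WT, so the second KO array and the second WT array stood almost level. Leaving out the first KO array gave a median difference of -0.033, leaving out the first WT array -0.043, and leaving out the second KO array -0.11. In complex IV the array medians were -0.069 and -0.0079 in KO and 0.073 and 0.011 in WT. In complex II they were -0.11 and 0.066 in KO and -0.022 and 0.023 in WT, where KO held both the lowest and the highest array. The actin and Gapdh 3′ over 5′ ratios were also at their extremes in the first KO array (2.75 and 1.18) and the first WT array (1.85 and 0.844). Both ratios were higher in each KO array than in each WT array, so RNA quality and genotype cannot be told apart in these arrays. The part of RNA quality in the medians was not tested.

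**Figure D4:**
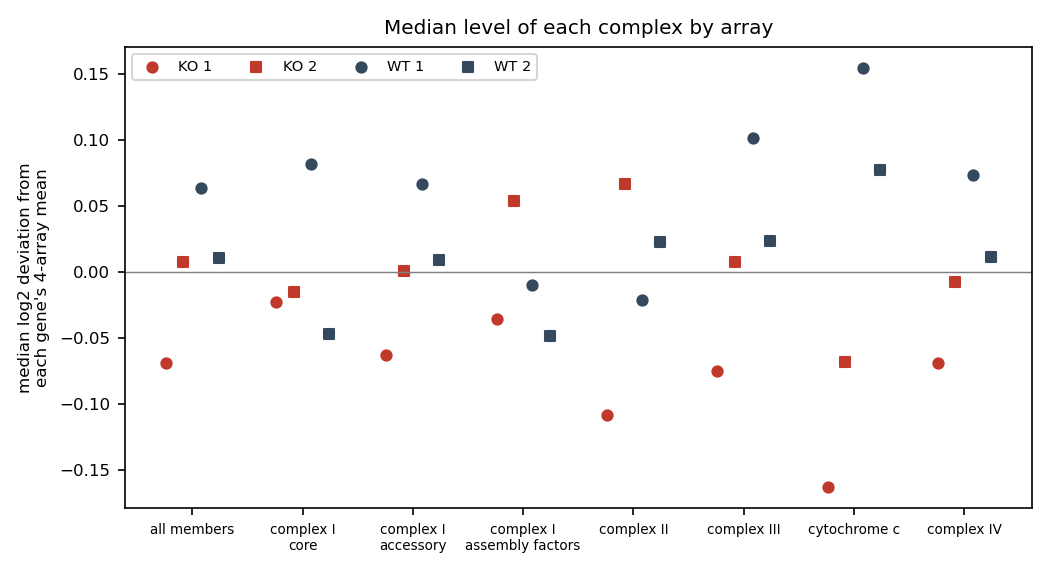
Median over genes of the log2 deviation from each gene's 4-array mean, for all 71 tested genes and by complex, with 1 symbol for each array (KO red, WT dark). Over all genes the medians are -0.069 and 0.0077 in KO and 0.063 and 0.01 in WT, and the second arrays of the groups lie close together.

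ATP synthase, the enzyme downstream of the chain, also had mostly negative differences. Of 16 genes tested, 14 had a negative difference (44.3% of all genes tested did), and the median was -0.085. Groups did not overlap for 8 lower and 0 higher, beside 20.6% and 28.0% of all genes tested, and 0 were called, with Atp5g1, a ring subunit, at an unadjusted p = 0.00757 (5616 and 5824 in KO, 7246 and 6629 in WT, adjusted p = 0.158). Atp5a1, the alpha subunit, stood at -0.0026 ± 0.081. The 76 tested genes of mitochondrial ribosomal proteins, whose products translate the mitochondrial transcripts, had a median of 0.012, with 36 lower and 40 higher, of which 1 higher was called. No test of the difference between these sets was made, and the sets were not matched for signal.

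**Figure D5:**
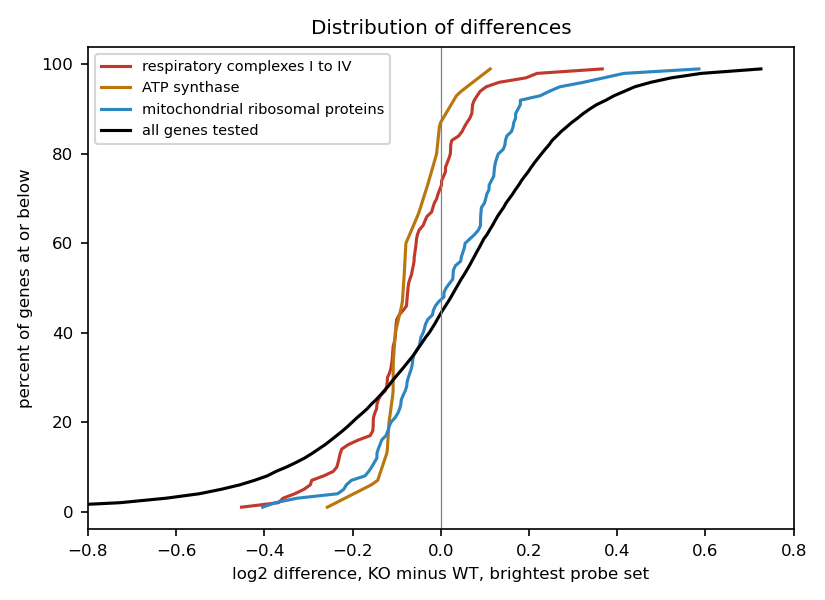
Percent of genes at or below each log2 difference (KO minus WT, brightest probe set) for the 71 respiratory genes, 16 ATP synthase genes, 76 mitochondrial ribosomal protein genes and all 10184 genes tested. The respiratory and ATP synthase curves cross the middle at -0.074 and -0.085, the other curves at 0.012 and 0.035.

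Separate assembly factors and regulators of the chain showed no call. Of 29 tested assembly factors in a separate list, 0 passed and 2 were lower at unadjusted p under 0.05. That count is near the share of all genes tested, 7.14%. The genes were Timmdc1, which assembles the membrane arm of complex I (315 and 259 in KO, 410 and 410 in WT, -0.52 ± 0.15, adjusted p = 0.118), and Cox19, a copper-pathway factor (-0.28 ± 0.12, adjusted p = 0.297). Both, like Atp5g1 and Ppara, are named after their values were seen. The list's median was 0.035. Of 19 regulators, again 0 passed, with a median of 0.038. Esrra, an orphan receptor that drives respiratory genes, read 425 and 298 in KO and 489 and 436 in WT (-0.38 ± 0.17, unadjusted p = 0.0441, adjusted p = 0.309), and Ppara, a receptor for fatty acids, was at -0.45 ± 0.16 (adjusted p = 0.192). The coactivator Ppargc1a read 1012 and 1197 in KO and 1131 and 884 in WT (0.14 ± 0.14, adjusted p = 0.664). Esrrg (0.34 ± 0.16), Nrf1 (0.26 ± 0.20), Gabpa (0.12 ± 0.13) and Tfam (0.15 ± 0.14), which acts on mitochondrial DNA, had higher mean signals in KO and did not pass (adjusted p = 0.331 to 0.704).

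Other cell types were checked by marker lists. Of 5 brown fat markers on the array 3 were tested, with a median of -0.0096 and 0 called, and Ucp1 did not pass the detection filter. Of 6 fibroblast markers, Col1a1 and Col1a2 fell (-0.73 ± 0.10 and -0.55 ± 0.097, adjusted p = 0.00199 and 0.0118). The other fibroblast genes did not pass, with differences from -0.15 (Col3a1) to 0.52 (Pdgfra, 290 and 362 in KO, 208 and 245 in WT, unadjusted p = 0.00811, adjusted p = 0.162). Among 3 tested erythroid genes, embryonic globin Hbb-y rose at low signals (58.8 and 57.3 in KO, 22.6 and 11.8 in WT, 1.83 ± 0.39, adjusted p = 0.0376). It was Present on 1 WT array and so passed the filter through KO. Alas2 (0.31 ± 0.15, adjusted p = 0.344) and Slc4a1 (-0.012 ± 0.26, adjusted p = 0.989) did not pass the test. Hbb-bh1, Hba-x and Epb42 did not pass the detection filter. None of the 5 endothelial and 4 macrophage genes tested passed. Whether any of these tissues contributed to the respiratory values was not tested.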

How the data were processed

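Total RNA from ventricle pools was labelled with biotin (6 µg per array, per the labels) and hybridised to 1-colour arrays. The deposited Signal is an intensity on a linear scale from MAS5, which the submitters' processing notes list, as the authors' summary of each probe set; no version is stated. The 2%-trimmed mean of every array was 150. Per the file headers, each probe set has a deposited detection p-value and a call; the call was used as the filter. The deposited series table held the same signals. Of 45101 probe sets, 64 controls were left out; in the platform annotation 34945 name 1 gene, 932 several and 9160 are not listed, and nothing was named from those with several.

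Log2 signals (the 4 signals of 0 set to 0.1) of 19065 probe sets Present on both arrays of a group were fitted with limma 3.58.1 in R 4.3.3 (lmFit, eBayes with a variance trend), KO minus WT, two-sided, Benjamini-Hochberg adjusted, threshold 0.05. The fit was tested on simulated data. A gene is represented by its tested probe set of highest mean log2 signal. Named genes are those called, those at unadjusted p under 0.05, fixed isoforms and core subunits, the extremes of each complex, X-linked members, members whose sets differ by over 0.5, and those untested. Members and lists were chosen with earlier results of these data known. Array number limits the precision. Same-numbered KO and WT arrays were not taken as pairs, since the labels do not say so and their deviations from group means correlated at r = -0.011 over probe sets.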

Additional observations from a re-analysis of the deposited data

How the results depend on the processing

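Across the array, 183 probe sets were lower and 73 higher in KO; the counts were 30 and 7 with no detection filter, 19 and 4 with no variance trend, and 110 to 428 and 48 to 222 when 1 array was left out. Member probe sets called lower, 2 in the fit reported, numbered 0 without the filter, 0 without the trend and 1 to 3 with 1 array left out. Without the trend, 2 member genes were lower and 0 higher at unadjusted p under 0.05 (2 to 12 and 0 to 2 with 1 array left out). With replicate number as a replicate block, 450 probe sets were lower and 271 higher. Among members 4 sets were then lower (Ndufs5 and Ndufaf8 added, Ndufs5 at adjusted p = 0.0483) and 1 higher (Cox6a2 1457633_x_at). The labels do not say whether equal numbers mark paired pools. The median of members was -0.11 to -0.033 in every setting run.

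With 1 array left out, medians ran from -0.11 to 0.012 in complex I core, 0.024 to 0.084 in its assembly factors, -0.093 to 0.065 in complex II, -0.19 to 0.0051 in complex III and -0.12 to -0.056 in complex IV, and the Cox6a2 minus Cox6a1 shift from -0.17 to 0.073. Averaging all tested sets of a gene gave -0.11 in complex II, -0.15 in complex III and -0.042 for cytochrome c.

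None of the 12 genes whose sign turned was called. Leaving out 1 array gave ranges of -0.21 to 0.0053 for Cox6a2, -0.76 to 0.16 for Cox7c, -0.012 to 0.47 for Ndufaf6, -0.25 to 0.048 for Ndufb11, -0.089 to 0.13 for Ndufs1, -0.017 to 0.062 for Ndufs3, -0.087 to 0.053 for Ndufs7, -0.28 to 0.063 for Ndufs8, -0.026 to 0.060 for Sdha, -0.13 to 0.093 for Sdhc, -0.055 to 0.22 for Sdhd and -0.0066 to 0.15 for Uqcrfs1. Median centring gave -0.0096 for Ndufs1, -0.0086 for Ndufs3 and -0.014 for Sdha. Over 36 probe sets, 371 of 396 alternative values kept direction and side of the threshold. That count is largely fixed in advance and does not measure robustness. Settings of the filter, variance trend or block cannot turn a sign, and only the 2 Ndufa12 sets were called to begin with. Both of those calls were lost without the filter and without the trend. The cause of these changes was not tested. Dim sets, near background, had the widest errors.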

Other observations

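Probe sets naming several genes were outside the rule but read further subunits of complex I. Of 10 such sets, 7 were tested, and none passed. All 7 had negative differences, as did 48.0% of all tested probe sets, and in 5 the KO arrays lay below the WT arrays without overlap, as in 22.5% of all tested probe sets. The set for Ndufs5 and its pseudogene (1416495_s_at) read 1396 and 1355 in KO and 1700 and 1583 in WT (-0.25 ± 0.10, adjusted p = 0.267 in limma). A set for Ndufa11 and Ndufa11b (1429708_at) read 4373 and 4514 in KO and 5548 and 4668 in WT (-0.20 ± 0.10, adjusted p = 0.369). For Ndufb4 and its copies, 1428075_at read 4387 and 4823 in KO and 4968 and 5152 in WT (-0.14 ± 0.091, adjusted p = 0.491), while Ndufs6 and Ndufs6b (1433603_at) read 5046 and 5004 in KO and 5803 and 5126 in WT (-0.12 ± 0.093, adjusted p = 0.568). Signals from near-identical copies cannot be told apart at these sets.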
